A study of Mus musculus with 13 samples.

Results

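Kupffer cells are the resident macrophages of the liver sinusoids. They clear particles, bacteria and aged red blood cells from portal blood, recycle heme iron, and carry the C-type lectin receptor Clec4f, which other macrophages lack in mice. Resident Kupffer cells of embryonic origin carry Timd4, a receptor for phosphatidylserine on dying cells, and macrophages that enter the niche from blood acquire Timd4 late. The diet used here, DDC, blocks the last step of heme synthesis, so that protoporphyrin accumulates and plugs small bile ducts, and cholestasis follows.

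Kupffer cells were chosen by measured UMI counts, as barcodes with at least 1500 unique molecular identifiers (UMIs), at least 2 UMIs of Clec4f, at least 3 UMIs of Cd5l, Vsig4, Timd4 and Marco together, none of Cd3e or Epcam, and at most 1 of Stab2 and Clec4g together. This gave 2946 Kupffer cells of 95563 barcodes with at least 1500 UMIs in 13 10x single-cell RNA-seq libraries from mouse livers, and no sequence of these Kupffer barcodes was shared between libraries. C57BL/6J mice received control chow (D0) or chow with 0.1% DDC for 3, 5, 9, 19 or 25 days, and each time point has a library of isolation protocol A and of protocol B. Steady state comprises D0 A and D0 B, onset the D3 and D5 libraries, and progression the D9, D19 and D25 libraries. The library titled D19 B carries day 18 in its group label, and the STOP library (protocol B) is from mice returned to normal chow for 7 days after 18 days of DDC. No genetic change, transgene or other treatment is named for any of these groups. The labels do not tie mice to libraries, so the SDs and p-values measure the spread between libraries, which may be technical.

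The isolation protocols differ in which Kupffer cells they capture. Protocol A sorted Cd45+ cells without a macrophage gate, and it held 215 to 648 Kupffer cells per library. Protocol B took cells of a stellate cell preparation, Cd45+ Itgax+ Cd64- cells, Epcam+ cells and Cd3e+ Lyve1- cells. Its Cd64- gate leaves out most Kupffer cells, and it held 13 to 98 Kupffer cells per library on DDC or control chow. D3 B, with 13 cells, was left out of every sum that was tested. At steady state D0 B had 36 Kupffer cells and 187219 UMIs against 411 cells and 2439486 UMIs in D0 A, and the tested libraries on DDC held 494011 to 8098765 UMIs in Kupffer cells. Median UMIs per Kupffer cell lay between 4086 in D0 B and 16798 in D9 B.

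In protocol A, Kupffer cells made up 77.4% of Kupffer cells and Clec4f-negative macrophages together at D0 (95% exact binomial CI 73.6 to 80.9%), then 65.4% at D3, 55.99% at D5, 33.8% at D9, 34.4% at D19 and 25.02% at D25 (22.8 to 27.3%). Clec4f-negative macrophages were barcodes with no Clec4f, at least 5 UMIs of C1qa, C1qb and C1qc, at least 1 of Csf1r and the same limits on Cd3e, Epcam, Stab2 and Clec4g. Each of these shares comes from 1 library, its interval covers counting error only, and it moves with the numbers of both cell types. Of all barcodes with at least 1500 UMIs in protocol A, Kupffer cells were 6.30% at D0, 5.14% at D3, 3.17% at D5, 4.39% at D9, 6.93% at D19 and 3.45% at D25, with no steady fall, while Clec4f-negative macrophages were 120 of 6525 barcodes at D0 and 1042 of 7883 at D19. In protocol B the share among both macrophage types lay between 11.5 and 15.8% in the 6 libraries of the time course and was 29.1% in STOP, and the Cd64- gate of that protocol can set its level.

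The genes of the rule describe the members and were not tested. Values are CPM, UMIs per 1000000 UMIs of the Kupffer cells of a library, with TMM scaling between libraries where not stated otherwise. Over the libraries tested, Clec4f, the defining receptor, was at 3291 ± 639 CPM at steady state (n = 2), 3322 ± 492.9 at onset (n = 3) and 2646 ± 373 in progression (n = 6; SD). Timd4 was at 434 ± 48.9 CPM at steady state (n = 2), 391 ± 70.5 at onset (n = 3) and 297 ± 88.3 in progression (n = 6; SD), and its lowest library was D25 B with 145 CPM. Marco, a scavenger receptor for bacteria and particles, was at 552 ± 419.6 CPM at steady state (n = 2), 1280.5 ± 74.2 at onset (n = 3) and 2684 ± 1660.2 in progression (n = 6; SD). It was highest in D19 A (5571 CPM) and D19 B (3300.5 CPM), and lowest in D0 B (255 CPM). Cd5l, a secreted macrophage survival factor, ranged from 2439 CPM in D0 B to 6771 CPM in D19 A, and Vsig4, the complement receptor of Kupffer cells, from 1514 CPM in D0 B to 2909.6 CPM in D19 B.

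**Figure D1:**
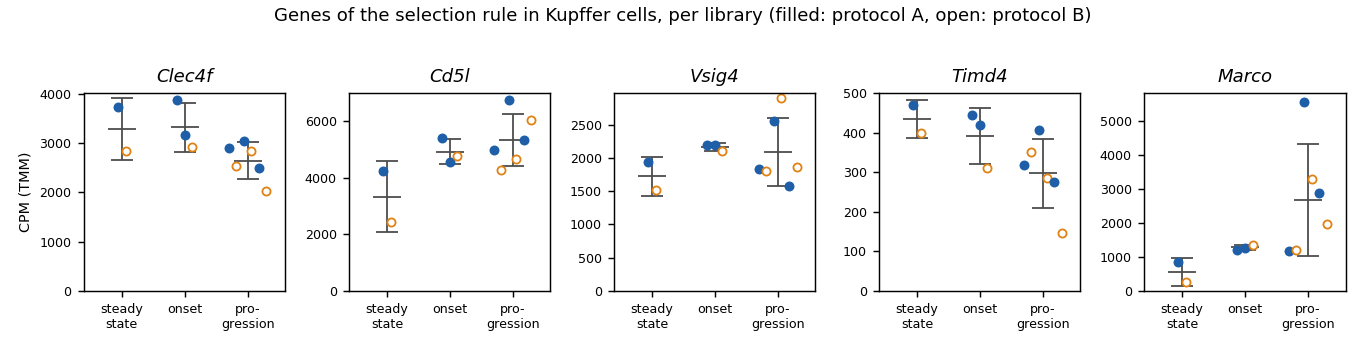
CPM (linear axis from 0) of the 5 marker genes that the rule counts in Kupffer cells, 1 point per library, filled for protocol A and open for protocol B, with stage means ± SD. Clec4f and Timd4 were lowest in D25 B, and Marco had its 2 highest values in D19 A and D19 B.

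Barcodes near the Clec4f threshold held less of the other Kupffer genes and, with all libraries summed, more Spp1 than those far inside it. The 465 barcodes just outside, with 1 UMI of Clec4f and the rest of the rule met, held 1401 CPM of Cd5l, 39.3 of Timd4 and 638 of Spp1 (CPM without TMM scaling, all libraries summed). The 250 members with 2 UMIs of Clec4f held 1351 CPM of Cd5l, 53.3 of Timd4 and 552 of Spp1. Of their 735 Spp1 UMIs, 566 came from the 46 such cells of D19 A. The direction for Spp1 was not the same in every library, and in D3 A and D5 A such members held 0. The 2551 members with 4 or more UMIs held 5468, 377 and 71.3 CPM of the same genes. Results with this last tier alone are given below.

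The label was checked with Kupffer identity genes outside the rule. With every cell thinned to 1500 UMIs, Slc40a1, the iron exporter ferroportin, was detected in 53.1 to 89.3% of Kupffer cells per tested library of the time course, against 0 to 7.14% of T cells, which should lack it. Without thinning the range was 88.7 to 100%. Cd163, the hemoglobin scavenger receptor, was detected in 13.5 to 41.7% (T cells, 0 to 5.26%), and Clec1b, a C-type lectin receptor, in 40.1 to 72.4% (T cells, 0 to 12.5%). The monocyte gene Ly6c2 was detected in at most 4.23% of Kupffer cells. T cells had median depths of 2298 to 7726 UMIs, and protocol A libraries held only 14 to 57 of them. Summed CPM of the 18 identity genes (without TMM scaling) was 6441 to 9670 in Kupffer cells of the tested libraries. It was 1880 to 3953 in sinusoidal endothelial barcodes, chosen by Stab2 and Clec4g without Clec4f. In Clec4f-negative macrophages it was 698 to 1933, and in T cells 113 to 839. Folr2, another gene of that list, was at only 29.3 CPM in members with 4 or more UMIs of Clec4f.

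RNA of other cell types was present in the Kupffer barcodes, and it differed between libraries. Summed CPM of 20 hepatocyte markers was 1413 in D0 A, 353 in D0 B, 50.8 to 879 in the tested DDC libraries and 6089 in STOP. Summed stellate cell and fibroblast markers (12 genes) were at 1733 CPM in D0 A and 2573 in STOP against 66.1 to 835 in the tested DDC libraries. Summed sinusoidal endothelial markers (13 genes) ranged over the tested libraries from 250.5 CPM in D19 B to 3317 in D9 A. The comparison of stages was run again without the 1814 of 2946 barcodes that held over 2 UMIs of a set of 13 such markers. These were Cd79a, Ms4a1, Trac, Trbc2, Cd3d, Kdr, Ptprb, Krt7, Krt19, Dcn, Col3a1, S100a8 and Alb. The set held no dendritic cell or macrophage marker. Doublets were not removed.

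Lipid-associated macrophage genes were the group with the most genes that rose in Kupffer cells during DDC. Of 10102 genes tested, 187 (1.85%) passed the test in progression against steady state, 96 of them (0.95%) higher and 91 (0.901%) lower (edgeR quasi-likelihood test, Benjamini-Hochberg adjusted p below 0.05). An unadjusted p below 0.05 was reached by 1750 of the 10102. Of the 18 lipid-associated macrophage genes, 10 rose, none fell, and all 18 had a positive log2 fold change, with a median of 2.00 beside 0.027 over all genes tested. In 14 of the 18, all 6 progression libraries lay above both steady-state libraries, which held for 9.99% of all genes. All 6 lay below both steady-state libraries in 8.33% of all genes. The list describes macrophages that take up lipid from dying cells.

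A single UMI in D0 B, the shallowest library, corresponds to 4.998 CPM, the level of Trem2 there. Trem2, a lipid receptor that defines this state, was at 42.4 (D0 A) and 4.998 CPM (D0 B) at steady state, 153, 299.9 and 515 in D3 A, D5 A and D5 B, and 247 to 1037 over the 6 progression libraries (median 506). All 9 DDC libraries lay above both steady-state libraries, and the rise in progression passed the test (log2 fold change 3.88 ± 0.63, adjusted p = 0.014). Gpnmb, a transmembrane glycoprotein of lysosome-rich macrophages, was at 3.13 (D0 A) and 0 CPM (D0 B) at steady state, 17.6, 42.7 and 116 in D3 A, D5 A and D5 B, and 96.2 to 758 over the 6 progression libraries (median 234). Both steady-state libraries held almost none of it, and the progression libraries did not overlap with them (log2 fold change 6.66 ± 1.17, adjusted p = 0.022). Mmp12, the macrophage elastase, was at 58.5 (D0 A) and 0 CPM (D0 B) at steady state, 427, 1437 and 1378 in D3 A, D5 A and D5 B, and 798 to 3409 over the 6 progression libraries (median 1651). It was already high at onset in D5 A and D5 B and rose in progression (log2 fold change 5.22 ± 0.82, adjusted p = 0.012).

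The tetraspanin Cd63, a late endosome protein, was at 36.2 (D0 A) and 29.99 CPM (D0 B) at steady state, 54.4, 232 and 408 in D3 A, D5 A and D5 B, and 158 to 1004 over the 6 progression libraries (median 459). D3 A was close to steady state and the later libraries were higher (log2 fold change 3.56 ± 0.69, adjusted p = 0.028). Fabp5, a fatty acid carrier, was at 9.74 (D0 A) and 4.998 CPM (D0 B) at steady state, 25.1, 49.5 and 146 in D3 A, D5 A and D5 B, and 60.8 to 365 over the 6 progression libraries (median 223). The stages did not overlap for Fabp5 between steady state and progression (log2 fold change 4.53 ± 0.98, adjusted p = 0.037). Cd36, a receptor for oxidized lipid and fatty acids, was at 207 (D0 A) and 119.95 CPM (D0 B) at steady state, 459.6, 596 and 566 in D3 A, D5 A and D5 B, and 649 to 1057 over the 6 progression libraries (median 774). It was the member with the smallest p, and every DDC library was above D0 A and D0 B (log2 fold change 2.24 ± 0.29, adjusted p = 0.005). Lpl, the lipase that frees fatty acids from lipoproteins, was already at 1353 and 935 CPM at steady state and at 2186 to 2914 CPM in progression (log2 fold change 1.14 ± 0.22, adjusted p = 0.029). The galectin Lgals3 (log2 fold change 2.48), the tetraspanin Cd9 (2.08) and the actin capping protein Capg (1.70) also rose.

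**Figure D2:**
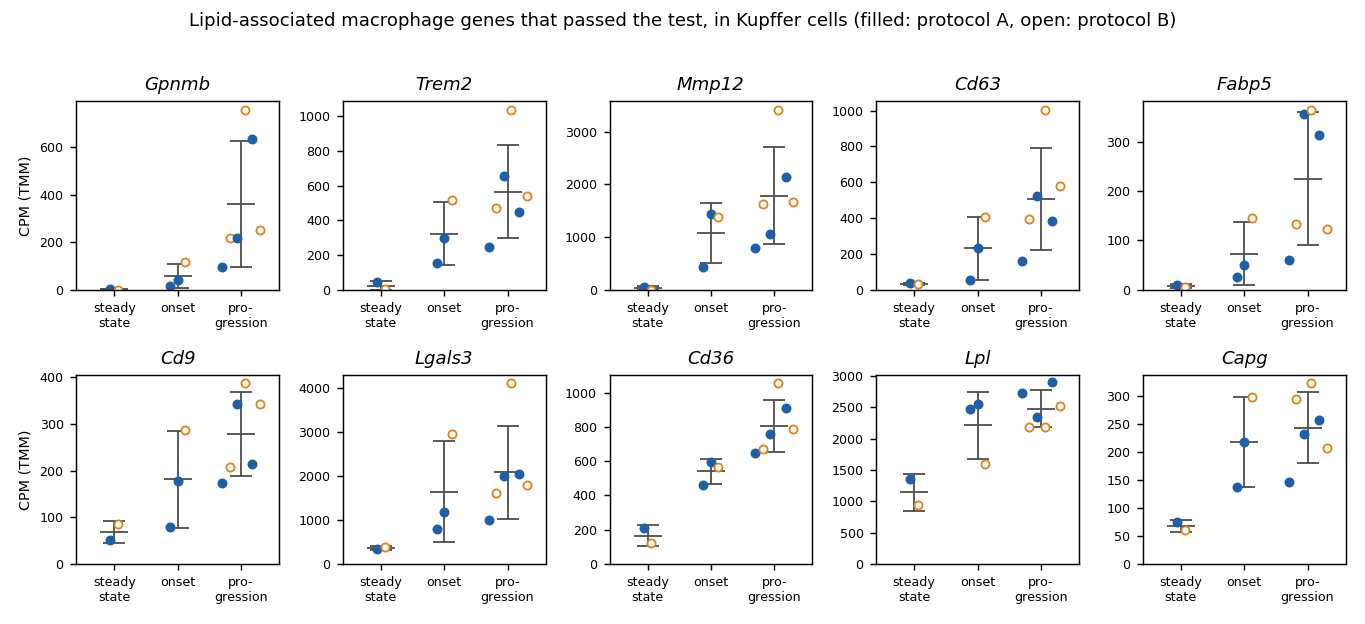
CPM (linear axis from 0) in Kupffer cells of the 10 lipid-associated macrophage genes that passed the test in progression against steady state, 1 point per library, filled for protocol A and open for protocol B, with stage means ± SD. In each panel the 6 progression libraries lie above both steady-state libraries, and D3 A is the lowest of the 3 onset libraries for 9 of the 10 genes.

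The other 8 members did not pass. Apoe, the main lipid carrier secreted by macrophages, went from 9231 and 6322 CPM at steady state to 15508 to 37019 in progression (log2 fold change 1.67 ± 0.41, adjusted p = 0.051). Spp1, osteopontin, was at 37.2 (D0 A) and 0 CPM (D0 B) at steady state, 29.3, 4.74 and 80.1 in D3 A, D5 A and D5 B, and 35.6 to 196 over the 6 progression libraries (median 95.5) (log2 fold change 1.92 ± 0.89, adjusted p = 0.28). In thinned cells Spp1 was detected in at most 16.8% of Kupffer cells in a tested library and in up to 15.8% of T cells. T cells were few in protocol A, and the part of background in the Kupffer share was not tested. In D0 A Trem2 was detected in 6.33% (95% CI 4.17 to 9.13%) of Kupffer cells, against 0 of 36 cells in D0 B and 61.2% (95% CI 50.8 to 70.9%) in D19 B, and in at most 1.78% of T cells. Gpnmb went from 0.487% (95% CI 0.059 to 1.75%) in D0 A and 0 of 36 cells in D0 B to 39.8% (95% CI 30.04 to 50.2%) in D19 B and 24.3% (95% CI 19.95 to 28.97%) in D25 A, with up to 7.14% in T cells. With 0 of 36 cells, 3 counts of that total give a limit of 8.33% on the share of D0 B cells with a UMI, for counting error only.

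The count of called members depended on the steady-state libraries. Without D0 A 3 of the 18 passed (14 of all genes), without D0 B 0 (13 of all genes), and without D25 A 4 (30 of all genes). Their median log2 fold change stayed between 1.75 and 2.88 over all libraries left out in turn, and all 18 were positive each time. With 4 or more UMIs of Clec4f per cell 10 members passed (beside 1.09% of all genes higher, median 1.89), and without barcodes with markers of other types 8 (beside 0.903% of all genes higher, median 1.94). In protocol A alone, which leaves D0 A as the 1 steady-state library, none passed (edgeR), 16 had an unadjusted p below 0.05, and the median was 2.13. Without the protocol term 4 did. Summed over the 18 genes, Clec4f-negative macrophages held 12328 to 24606 CPM at steady state and 45769 to 80302 in progression, and Kupffer cells 9022 to 14363 and 22288 to 51995. Such sums weight each member by its level. Apoe, which did not pass, made up most of the Kupffer sums at steady state. The part of free RNA or doublets from those macrophages in the rise was not tested.

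At onset, 2 of 10102 genes (0.0198%) passed against steady state, 1 in each direction (0.0099%), and 1248 had an unadjusted p below 0.05. Ccl9, a CC chemokine that attracts myeloid cells, was at 19.5 (D0 A) and 14.99 CPM (D0 B) at steady state, 108, 252 and 258 in D3 A, D5 A and D5 B, and 203 to 320.4 over the 6 progression libraries (median 288). Steady state did not overlap with onset or with progression, and those 2 stages overlapped. Ccl9 rose at onset (log2 fold change 3.40 ± 0.42, adjusted p = 0.012) and in progression (log2 fold change 3.81 ± 0.41, adjusted p = 0.00059). Its call at onset was lost without D0 A (adjusted p = 0.19), without D0 B (0.093), in protocol A alone (0.18) and with at least 50 cells per library (0.15). The other gene, Mmrn1, was named after its values were seen. It was at 45.9 CPM in D0 A and at 0 in D0 B, and at most 0.527 at onset, so 1 library carries its fall (log2 fold change -6.27 ± 0.92, adjusted p = 0.04). None of the 18 lipid-associated macrophage genes passed at onset, although 12 had an unadjusted p below 0.05 and their median log2 fold change was 1.52.

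A few genes of the lysosome and of lipid handling rose. Of 25 lysosomal genes 3 rose and none fell (median log2 fold change 0.46). Atp6v0d2, a subunit of the proton pump found in osteoclasts and lipid-laden macrophages, was at 0 in D0 A and D0 B, at 3.96, 16.9 and 47.3 CPM at onset, and at 17.1 to 194 CPM in progression. The limit of 3 counts over both steady-state libraries is 0.976 CPM and is set mostly by D0 A. Against it, the progression mean was at least 98.1-fold higher (adjusted p = 0.031). The lowest progression library held 17.1 CPM, so this bound does not cover every library. Lipa, the lysosomal acid lipase, rose from 416 and 425 CPM to 641 to 1046 (log2 fold change 1.03 ± 0.22, adjusted p = 0.038). The cathepsin Ctsz rose as well (log2 fold change 1.44).

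Of 22 scavenger and phagocytic receptors, 3 rose and none fell (median 0.31). Besides Cd36 these were Colec12 and Lrp1. Colec12, a scavenger receptor with a collectin domain, was at 17.7 (D0 A) and 19.99 CPM (D0 B) at steady state, 48.4, 109 and 85.5 in D3 A, D5 A and D5 B, and 122 to 462 over the 6 progression libraries (median 204). Every DDC library was above both steady-state libraries (log2 fold change 3.62 ± 0.63, adjusted p = 0.022). Lrp1, a receptor for lipoproteins and heme bound to hemopexin, went from 474 and 385 CPM to 658 to 953 (log2 fold change 0.92 ± 0.21, adjusted p = 0.043).

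Genes of cholesterol efflux under the nuclear receptor LXR moved in both directions. Of 14 tested, 2 rose and 2 fell (median 0.90). Nr1h3, which encodes LXR alpha and is a Kupffer identity factor, was at 546 (D0 A) and 395 CPM (D0 B) at steady state, 602, 346 and 266 in D3 A, D5 A and D5 B, and 169 to 307 over the 6 progression libraries (median 203). D3 A was above both steady-state libraries, and all progression libraries were below them (log2 fold change -1.15 ± 0.24, adjusted p = 0.033). Abca1, the cholesterol exporter, rose from 247 and 179.9 CPM to 422 to 664 (log2 fold change 1.26 ± 0.22, adjusted p = 0.021). Scd2, a fatty acid desaturase, rose (log2 fold change 1.45) and the lipid transporter Abca9 fell (-1.41). None of 15 cholesterol synthesis genes passed (edgeR), and 2, both lower, had an unadjusted p below 0.05, beside 1750 of all 10102 genes.

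Kupffer identity genes outside the rule passed the test in few cases. Of 17 tested, 2 rose, none fell, and the median log2 fold change was -0.14. Clec1b was at 327 (D0 A) and 345 CPM (D0 B) at steady state, 550.05, 632 and 624 in D3 A, D5 A and D5 B, and 573 to 1000.2 over the 6 progression libraries (median 787), and every DDC library was above both steady-state libraries (log2 fold change 1.21 ± 0.24, adjusted p = 0.029). Fabp7, a fatty acid carrier of Kupffer cells, went from 404 and 245 CPM to 756 to 1336 (log2 fold change 1.53 ± 0.34, adjusted p = 0.038). The iron exporter Slc40a1 had a log2 fold change -0.14 ± 0.24, adjusted p = 0.84, Cd163 a log2 fold change -0.24 ± 0.34, adjusted p = 0.77, and the complement component C6 a log2 fold change -0.66 ± 0.20, adjusted p = 0.11. Of 16 Kupffer transcription factors Nr1h3 alone passed, and the values of Id3 (log2 fold change -0.71 ± 0.22, adjusted p = 0.11) and Spic (log2 fold change 0.15 ± 0.34, adjusted p = 0.89) did not.

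Stress and metal response genes moved in a few members. Of 22 genes of heme breakdown and iron handling 1 rose and 1 fell. Tfrc, the transferrin receptor for iron uptake, fell from 68.9 and 44.98 CPM to 14.99 to 27.4 (log2 fold change -1.45 ± 0.28, adjusted p = 0.028), and Lrp1, named above, is the other. Hmox1, heme oxygenase, was at 1238 (D0 A) and 1779 CPM (D0 B) at steady state, 1714, 2291 and 2000.4 in D3 A, D5 A and D5 B, and 1158 to 3328 over the 6 progression libraries (median 2956), with D9 B below both steady-state libraries and the other progression libraries above them (log2 fold change 0.78 ± 0.36, adjusted p = 0.28). Of 16 NRF2 targets, genes of the antioxidant response, Txnrd1 alone rose. Txnrd1, thioredoxin reductase, was at 219.6 (D0 A) and 175 CPM (D0 B) at steady state, 286, 522 and 517 in D3 A, D5 A and D5 B, and 581 to 1060.5 over the 6 progression libraries (median 701), and every DDC library was above both steady-state libraries (log2 fold change 1.86 ± 0.32, adjusted p = 0.021). The metallothionein Mt1, a metal-binding protein, rose from 324 and 259.9 CPM to 590.1 to 903 (log2 fold change 1.28 ± 0.24, adjusted p = 0.028). The calls of these smaller lists depended on both steady-state libraries. Without D0 B no gene of the lysosome, scavenger, LXR, identity, heme and iron, NRF2 or metallothionein lists passed (edgeR), and 1 to 8 per list had an unadjusted p below 0.05. Without D0 A Cd36 alone of them passed. The scavenger receptors had 0 (without D0 B) to 5 (without D9 A) calls over all libraries left out in turn, and a median of 0.23 without D0 B and 0.90 without D0 A. The median of the heme and iron list was 0.11 and 0.85 in the same settings, beside 0.030 and 0.22 over all genes.

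Heat shock genes were the list with the most genes that fell. Of 12 tested, 5 fell and none rose in progression, all 12 had a negative log2 fold change, and the median was -1.48. Hspa1b, an inducible chaperone of the HSP70 family, was at 2061 (D0 A) and 609.8 CPM (D0 B) at steady state, 405, 109 and 91.01 in D3 A, D5 A and D5 B, and 8.50 to 364 over the 6 progression libraries (median 31.3). D0 A was the highest library and D9 A the highest on DDC in progression (log2 fold change -3.99 ± 0.86, adjusted p = 0.037). Its near-identical neighbour Hspa1a was at 962 (D0 A) and 295 CPM (D0 B) at steady state, 276, 76.4 and 80.1 in D3 A, D5 A and D5 B, and 14.5 to 224 over the 6 progression libraries (median 42.8) (log2 fold change -3.05 ± 0.66, adjusted p = 0.037), and reads of both may have been split between them. Dnajb1, a co-chaperone, was at 223 (D0 A) and 109.95 CPM (D0 B) at steady state, 64.1, 32.7 and 34.6 in D3 A, D5 A and D5 B, and 16.3 to 38.3 over the 6 progression libraries (median 23.2), so that steady state and the 9 DDC libraries did not overlap (log2 fold change -2.73 ± 0.29, adjusted p = 0.00059). The chaperone Hsp90aa1 (log2 fold change -1.29) and the co-chaperone Dnaja1 (-1.67) fell too.

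The sequence that heat shock factor binds contains inverted repeats of GAA, searched here as GAANNTTC, a palindrome and therefore the same on both strands. In the 250 bases before the start of a gene (RefSeq, GRCm38.p6), it was found in 3 of the 4 heat shock genes that fell and have a promoter in the table, in 6 of 9 genes of the whole list, and in 7.73% of all 27025 promoters. Among all genes that fell it was in 10 of 74 (13.5%), 3 of them heat shock genes. Of the 10, Ifi206, Ifi208 and Ifi213 share an identical window of 30 bases, and Hspa1a and Hspa1b share another. The 10 matches are therefore not independent. The motif was in 1 of the 69 that rose (1.45%) and in 6.19% of the genes tested. The windows of 30 bases around it are shown with the motif in capitals, because these are the fallen heat shock genes in which the match lies.
Hspa1b, chr17:34959324-34959353 (-): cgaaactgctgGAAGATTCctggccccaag
Hspa1a, chr17:34972242-34972271 (-): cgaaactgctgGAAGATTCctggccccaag
Dnaja1, chr4:40722333-40722362 (+): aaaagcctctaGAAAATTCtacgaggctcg
Each window is written on the strand given, 5′ to 3′, and lies before the start of the gene. The windows of Hspa1a and Hspa1b hold the same letters. A match describes these letters only.

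Of 18 immediate early genes tested, 3 fell and none rose (median -0.90). Fos, a subunit of the transcription factor AP-1, was at 2175 (D0 A) and 1824 CPM (D0 B) at steady state, 1157, 1083 and 1263 in D3 A, D5 A and D5 B, and 542 to 1310.2 over the 6 progression libraries (median 939.9), with both steady-state libraries above all others (log2 fold change -1.13 ± 0.26, adjusted p = 0.044). The AP-1 subunit Jund (log2 fold change -0.96) and the phosphatase Dusp1 (-0.95) were the others. These genes also respond to tissue dissociation. Summed over the 12 heat shock genes, Kupffer cells held 6864 to 9607 CPM at steady state and 3189.5 to 4164 in progression, and Clec4f-negative macrophages 5916 to 12273 and 3057 to 4484. Immediate early genes summed to 15046 to 20668 and 6860.2 to 11623 CPM in Kupffer cells and to 16959 to 19332 and 9056 to 11154 in those macrophages. The part of dissociation or handling in the difference was not tested. Without D0 A none of the 12 heat shock genes passed, and without D0 B 1 did, with medians of -1.06 and -1.27. Of the immediate early genes none passed (edgeR) without D0 A, D0 B, D5 A, D5 B or D25 A, 1 or 2 without D3 A, D9 B, D19 A, D19 B or D25 B, and 12 without D9 A, with all medians negative (-1.07 to -0.80). Unadjusted, 12 of 18 were below 0.05 with all libraries.

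**Figure D3:**
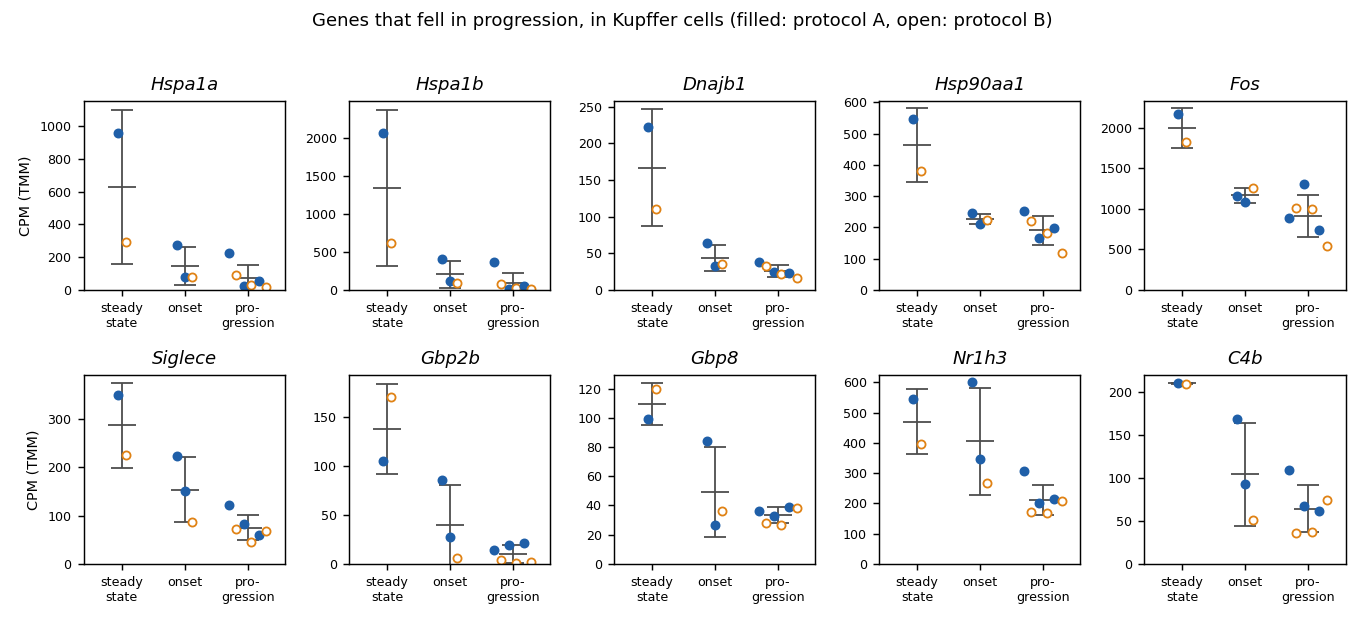
CPM (linear axis from 0) in Kupffer cells of 10 genes that passed the test as lower in progression against steady state, 1 point per library, filled for protocol A and open for protocol B, with stage means ± SD. Both steady-state libraries lie above the 6 progression libraries in every panel, and above the 3 onset libraries in every panel but that of Nr1h3. Steady state lies above progression in this way in 8.33% of all genes tested.

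Interferon-response genes were lower in single members. The median log2 fold change was -0.64 over 25 type I interferon-stimulated genes. Gbp8, a guanylate-binding GTPase induced by interferon gamma, was the 1 call among 15 interferon gamma targets (median -0.83). Gbp8 fell from 99.5 and 119.95 CPM to 26.4 to 39.00 (log2 fold change -1.67 ± 0.34, adjusted p = 0.029). Gbp2b, another GTPase of that family outside the list, was at 105 (D0 A) and 169.9 CPM (D0 B) at steady state, 85.4, 26.9 and 5.46 in D3 A, D5 A and D5 B, and 0.753 to 20.8 over the 6 progression libraries (median 8.99), and the 2 lowest libraries were D19 B and D25 B (log2 fold change -3.95 ± 0.64, adjusted p = 0.014). Its near copies in the family make its counts uncertain.

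The interferon-stimulated response element was searched on both strands in the same upstream windows, as GAAA, any 2 bases and GAAA again, which may overlap the motif above. It was found in 9 of the 74 fallen genes with a promoter (12.2%), in 4 of the 69 that rose (5.80%), in 9 of 20 type I interferon-stimulated genes and in 3.46% of all promoters. Among the fallen genes with a match were Gbp2b, Mndal, Ifi206, Ifi208, Ifi213, Slfn9 and Trim30d, and all except Gbp2b were named after their values were seen. Log2 fold changes were -1.17 for Mndal, -1.81 for Ifi206, -2.04 for Ifi208, -1.46 for Ifi213, -1.17 for Slfn9 and -1.31 for Trim30d. Mmrn1 and Ccnt2, the latter also named after its values were seen, fell and hold the match too, and their windows are not shown. Windows of 6 of the 9 fallen genes with a match are shown as examples, and that of Ifi213 has the same letters as that of Ifi208.
Gbp2b, chr3:142594700-142594729 (-): tgataaagaaGAAAGTGAAAttagaagtac
Mndal, chr1:173880204-173880233 (-): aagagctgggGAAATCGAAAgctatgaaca
Ifi206, chr1:173491339-173491368 (-): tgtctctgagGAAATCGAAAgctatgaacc
Ifi208, chr1:173673597-173673626 (+): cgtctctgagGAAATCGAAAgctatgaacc
Slfn9, chr11:82991856-82991885 (+): ttgtttttggGAAAACGAAActgctcggat
Trim30d, chr7:104507871-104507900 (+): caggaactgaGAAAAAGAAActaaagaact
Capitals mark the match, and each window is written 5′ to 3′ on the strand on which it was found. Ifi206, Ifi208, Ifi213 and Mndal lie close together on chromosome 1 and belong to a family of DNA-sensing proteins with near-identical copies, so their counts are uncertain. Their windows share the letters of the match and most of those after it, so the 9 matches among the fallen genes are not independent.

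Siglece, an inhibitory receptor for sialic acid, was at 349 (D0 A) and 225 CPM (D0 B) at steady state, 223, 150.2 and 87.4 in D3 A, D5 A and D5 B, and 45.2 to 121 over the 6 progression libraries (median 70.03), with D0 A and D0 B the highest or level with D3 A (log2 fold change -1.95 ± 0.27, adjusted p = 0.0063). C4b, a complement component, was at 211 (D0 A) and 209.9 CPM (D0 B) at steady state, 169.6, 92.8 and 50.97 in D3 A, D5 A and D5 B, and 35.6 to 109.9 over the 6 progression libraries (median 64.5), with steady state above every DDC library (log2 fold change -1.74 ± 0.34, adjusted p = 0.029). The adaptor Bank1 (log2 fold change -1.81) and the small nuclear RNA Rn7sk (-3.17) completed the 8 largest falls of the naming rule. Bank1 is a B cell adaptor, and summed B and plasma cell markers were at 92.6 CPM in D0 A, 363 in D0 B and 14.00 to 95.4 in progression. Their part was not tested. Of 18 hepatocyte markers tested 2 fell, Mup3 and Serpina1b, beside the hepatocyte marker sums given above, and their part was not tested.

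None of 9 MHC class II genes passed (edgeR), 4 had an unadjusted p below 0.05, and all 9 log2 fold changes were negative (median -0.77). H2-Aa was at 1178 (D0 A) and 4193 CPM (D0 B) at steady state, 996, 1096 and 2017 in D3 A, D5 A and D5 B, and 599 to 2343 over the 6 progression libraries (median 882) and Cd74, the invariant chain, at 3264 CPM in D0 A and 11570 in D0 B. The 2 steady-state libraries thus differed from each other by more than D0 A differed from progression. Summed dendritic cell markers, from cells that also carry MHC class II, were at 96.7 CPM in D0 A, 417 in D0 B and 45.4 to 125 in progression, and their part was not tested. No gene passed (edgeR) among 20 NF-kB targets (3 at an unadjusted p below 0.05, median -0.10), 23 cell cycle genes (2, -0.13), 17 monocyte genes (5, 0.57), 16 glycolysis and hypoxia genes (6, 0.42) or 16 genes of TGF-beta and BMP signalling (3, -0.38). Over all 10102 genes tested, 1750 had an unadjusted p below 0.05 in this comparison. Leaving out 1 library turned the sign of some of these medians: NF-kB targets without D0 A (0.26) or D19 A (0.04), cell cycle genes without D0 B (0.48), D5 B (0.06), D9 B (0.21) or D19 B (0.18), and TGF-beta and BMP signalling without D0 A (0.26). Without D0 A the median over all genes was itself 0.22, and in the other settings named it lay between 0.009 and 0.040. Of 27 cytokines and chemokines Ccl9 alone passed. Mki67, a marker of cycling cells, was at 22.96 (D0 A) and 94.96 CPM (D0 B) at steady state, 58.4, 13.7 and 10.9 in D3 A, D5 A and D5 B, and 9.37 to 72.6 over the 6 progression libraries (median 39.7) (log2 fold change -0.10 ± 0.77, adjusted p = 0.98).

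Progression and onset differed in 4 of 10102 genes (0.0396%), 1 higher (0.0099%) and 3 lower (0.0297%) in progression. Sort1, a lysosomal sorting receptor, was at 3.13 (D0 A) and 0 CPM (D0 B) at steady state, 2.42, 3.16 and 5.46 in D3 A, D5 A and D5 B, and 12.2 to 27.1 over the 6 progression libraries (median 24.4), and it was the 1 gene that rose (log2 fold change 2.78 ± 0.40, adjusted p = 0.02). Its call was lost without D3 A, D5 A, D9 B or D19 A, with at least 4 UMIs of Clec4f, with at least 50 cells per library and without barcodes with markers of other types, since no gene passed as higher there (edgeR). Ly6a, a surface protein induced by interferon, was at 104 (D0 A) and 99.96 CPM (D0 B) at steady state, 158, 154 and 87.4 in D3 A, D5 A and D5 B, and 16.6 to 65.2 over the 6 progression libraries (median 23.5). Onset and progression did not overlap for Ly6a, and D9 A was its highest progression library (log2 fold change -2.02 ± 0.27, adjusted p = 0.011). Its call was lost without D3 A (adjusted p = 0.13), without D5 A (0.081), without D19 A (0.068), in protocol A alone (0.28), with at least 50 cells per library (0.057) and without the protocol term (0.12). The other 2, Mup11 and Serpina1e, are hepatocyte genes. Sort1, Mup11 and Serpina1e were named after their values were seen.

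Clec4f-negative macrophages of the same libraries were compared to show where Kupffer cells differ. The change from onset to progression differed between both cell types in 3 of 11327 genes (0.0265%), all 3 with a larger log2 fold change in Kupffer cells. Ccr1, a receptor for CC chemokines, was at 4.17 to 11.9 CPM at onset and 19.9 to 64.2 in progression in Kupffer cells, and at 136 to 157 and 142 to 177 in Clec4f-negative macrophages (CPM without TMM scaling). The Kupffer values of both stages did not overlap and those of the macrophages did (difference of log2 fold changes 2.45 ± 0.36, adjusted p = 0.023). Ccr1 was higher in the macrophages at both stages, and the part of their free RNA or doublets in the Kupffer values was not tested. Ccr1 lost its call with at least 4 UMIs of Clec4f (adjusted p = 0.087), with at least 3000 UMIs per cell (0.075), without barcodes with markers of other types (0.17), without D3 A (0.33) and without D5 A (0.24). The others were low in Kupffer cells. The chemokine Ccl22, named after its values were seen, was at 0.906 to 5.60 CPM at onset and 0.37 to 23.4 in progression in Kupffer cells, and at 44.4 to 138 and 1.36 to 20.4 in the macrophages. Retnlg, a gene of neutrophils, was at 0 to 1.12 and 0 to 47.1 CPM in Kupffer cells and 0 to 26.8 and 0 to 36.96 in the macrophages. Retnlg lost its call with at least 4 UMIs of Clec4f, with at least 3000 UMIs per cell, without D3 A, without D5 A and in protocol A alone. Summed neutrophil markers in Kupffer cells were highest in D9 A (1142 CPM) and D19 A (834), and their part was not tested.

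Against steady state, in a comparison added after the data were seen, the change to progression differed in 20 of 11987 genes (0.167%), 18 (0.15%) with a larger log2 fold change in Kupffer cells and 2 (0.0167%) with a smaller one. The genes of this comparison were named after their values were seen. Ccl9 was at 16.02 to 22.96 CPM at steady state and 198 to 333 in progression in Kupffer cells, and at 91.5 to 250.4 and 303 to 431 in the other macrophages (difference 2.85 ± 0.36, adjusted p = 0.0028). Mmp12 was at 0 to 68.9 and 777 to 3334 CPM in Kupffer cells and at 288 to 330.5 and 487 to 1362 in the others (3.58 ± 0.65, adjusted p = 0.038). Mmp12 was lower in Kupffer cells than in the others at steady state, and in progression the ranges overlapped. Ptafr, the receptor for platelet-activating factor, was at 15.6 to 16.02 and 50.7 to 121 CPM in Kupffer cells and 196 to 209 and 172 to 227 in the others (2.47 ± 0.31, adjusted p = 0.0028). Ccl9, Mmp12 and Ptafr were all higher in the other macrophages at steady state. The part of free RNA or doublets from those macrophages in the Kupffer values was not tested.

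Lpl and Slc40a1 were the 2 genes with a smaller change in Kupffer cells. Lpl was at 999 to 1594 CPM in Kupffer cells and 91.5 to 285 in the other macrophages at steady state, and at 2143 to 2818 and 1055 to 1958 in progression (-2.02 ± 0.30, adjusted p = 0.011). Slc40a1 was at 1864 to 2699 and 1559 to 2164 CPM in Kupffer cells and at 27.3 to 167 and 189.8 to 532 in the others (-2.40 ± 0.41, adjusted p = 0.022). For Trem2 and Gpnmb no difference passed. Trem2 was at 241 to 1014 CPM in Kupffer cells and 660.1 to 1257 in the others in progression (difference of log2 fold changes against steady state 1.36 ± 0.46), and Gpnmb at 93.7 to 741 and 487 to 1869.96 CPM (2.00 ± 0.83).

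**Figure D4:**
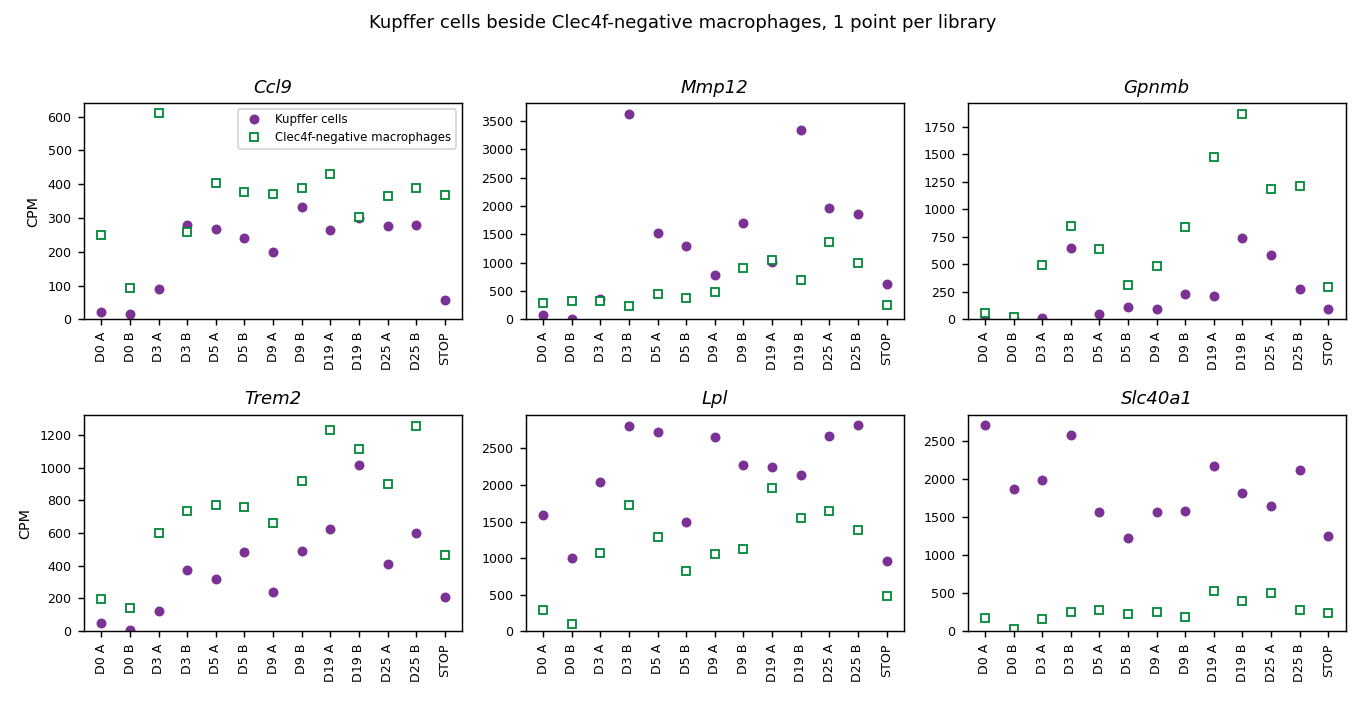
CPM without TMM scaling (linear axis from 0) of 6 genes in Kupffer cells (filled circles) and Clec4f-negative macrophages (open squares), 1 point per library, all 13 libraries on the horizontal axis. Slc40a1 was higher in Kupffer cells in every library, and Mmp12 and Ccl9 were low in the Kupffer cells of D0 A and D0 B.

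Kupffer cells also differed among themselves with Timd4. Each cell was thinned to 1500 UMIs and called Timd4-positive with at least 1 Timd4 UMI left, a call that also depends on chance at this depth. The positive share was 49.9% (95% CI 44.9 to 54.8%) in D0 A and 47.2% (95% CI 30.4 to 64.5%) in D0 B. It was 39.3% in D3 A, 47.9% in D5 A, 30.99% in D5 B and 19.2 to 50% in progression, and at most 0.183% of T cells had a Timd4 UMI. Timd4 is a gene of the rule, so this share is a description. Without thinning 32.7 to 85.4% of Kupffer cells per tested library had a Timd4 UMI, so the Timd4-negative cells include cells with a low level of it. In 8 libraries with at least 20 cells of both kinds, with 980 positive and 1740 negative cells, 553 of 7661 genes (7.22%) differed between Timd4-positive and Timd4-negative cells of the same library, 233 (3.04%) higher and 320 (4.18%) lower in positive cells. The split uses a gene of the rule, and the genes of the rule were not tested. With at least 3 UMIs of Cd5l, Vsig4 and Marco required without Timd4, a setting added after the data were seen that kept 970 positive and 1738 negative cells, 553 of 7655 genes (7.22%) passed, 545 of them shared with the first comparison.

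Members near the Clec4f threshold were more often Timd4-negative. With at least 4 UMIs of Clec4f, 932 of the 980 positive and 1418 of the 1740 negative cells were kept, and 283 of 7552 genes (3.75%) passed, 280 of them shared. There, 11 identity genes were higher (median 0.35), and 4 MHC class II genes (-0.71), 6 lipid-associated macrophage genes (-0.11) and 5 monocyte genes (-0.25) were lower.

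Kupffer identity genes were higher in Timd4-positive cells. Of 17 tested, 13 were higher and none lower, with a median log2 fold change of 0.39. C6 was at 394 to 878 CPM (median 646) in Timd4-positive and 265 to 587 CPM (median 398) in Timd4-negative cells, higher in positive cells of 8 of 8 libraries (log2 fold change 0.71 ± 0.08, adjusted p = 2.0e-05). Cd163 was at 168 to 632 CPM (median 403) in Timd4-positive and 111 to 409.9 CPM (median 265) in Timd4-negative cells, higher in 8 of 8 (log2 fold change 0.57 ± 0.08, adjusted p = 8.0e-05).

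Of 20 genes of heme breakdown and iron handling 7 were higher and none lower. Hmox1 was at 1379 to 3973 CPM (median 2626) in Timd4-positive and 1053 to 2685 CPM (median 1825) in Timd4-negative cells, higher in 8 of 8 libraries (log2 fold change 0.45 ± 0.06, adjusted p = 5.2e-05), and Slc40a1 was higher in 7 of 8 (log2 fold change 0.32 ± 0.07, adjusted p = 0.0055). Of the transcription factors, Nr1h3 (log2 fold change 0.41 ± 0.06, adjusted p = 0.00022), Spic, the factor of iron-recycling macrophages (log2 fold change 0.34 ± 0.08, adjusted p = 0.0087), and Id1 were higher and Bach1, the heme-sensing repressor, was lower. Of 11 complement genes 6 were higher, C1qa, C1qb and C1qc among them, and 3 lower. Il10, the cytokine that restrains inflammation, was higher in positive cells of 8 of 8 libraries (log2 fold change 0.53 ± 0.11, adjusted p = 0.0029). Other genes with the largest differences were Gbp2b (1.02), the secreted collagen-binding protein Pcolce2 (0.71), Xlr (0.64), Chp2 (0.61), the ficolin Fcna (0.61) and the thyroid hormone receptor Thrb (0.57).

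Several MHC class II and lipid-associated macrophage genes were lower in Timd4-positive cells. Of 6 MHC class II genes 4 were lower, none higher (median -0.73). H2-Ab1 was at 295 to 778 CPM (median 557) in Timd4-positive and 659.6 to 2505 CPM (median 921) in Timd4-negative cells, lower in positive cells of all 8 libraries (log2 fold change -0.90 ± 0.13, adjusted p = 0.00019). Of 17 lipid-associated macrophage genes 7 were lower, none higher and 4 had a positive log2 fold change (median -0.31). Gpnmb was at 0.646 to 556 CPM (median 69.2) in Timd4-positive and 5.92 to 792 CPM (median 88.1) in Timd4-negative cells, lower in positive cells of 6 of 8 (log2 fold change -0.83 ± 0.19, adjusted p = 0.0085), and Fabp5 of 7 of 8 (log2 fold change -1.09 ± 0.25, adjusted p = 0.0074). Trem2 had a log2 fold change -0.09 ± 0.08, adjusted p = 0.61, and Lpl a log2 fold change 0.16 ± 0.07, adjusted p = 0.23.

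Monocyte genes were lower in 6 of 13 and higher in 1. Cx3cr1, a chemokine receptor of monocyte-derived macrophages, was at 2.35 to 29.02 CPM (median 9.32) in Timd4-positive and 7.58 to 88.5 CPM (median 34.2) in Timd4-negative cells, lower in positive cells of all 8 libraries (log2 fold change -1.80 ± 0.26, adjusted p = 0.00016). The calcium-binding protein S100a6 was also lower in all 8 (log2 fold change -1.31 ± 0.16, adjusted p = 4.1e-05). Members with 2 UMIs of Clec4f held 150.3 CPM of Cx3cr1 and 496 of S100a6, against 30.1 and 98.6 in those with 4 or more. Of the 200 Cx3cr1 UMIs of the former, 149 came from D19 A. With members of 4 or more UMIs alone, the log2 fold changes were -1.45 (adjusted p = 0.0011) and -1.23 (adjusted p = 0.00015). Of 17 cell cycle genes 7 were lower and none higher (median -0.36), Mki67 among them (log2 fold change -0.65 ± 0.14, adjusted p = 0.0042). Both metallothioneins tested were lower, Mt1 in all 8 libraries (log2 fold change -0.42 ± 0.08, adjusted p = 0.0017). Other genes with large differences were the histone gene Hist1h2ap (-1.60), the actin-severing gelsolin Gsn (-1.56), Ccdc80 (-1.19), S100a11 (-1.17) and the transcription factor Mef2c (-1.14).

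Interferon and lysosome genes moved in both directions or in few members. Of 25 type I interferon-stimulated genes 3 were higher and 0 lower, and of 15 interferon gamma targets 2 higher and 2 lower. Gbp3, a guanylate-binding GTPase, was at 37.3 to 102 CPM (median 75.2) in Timd4-positive and 24.7 to 89.9 CPM (median 50.1) in Timd4-negative cells (log2 fold change 0.37 ± 0.10, adjusted p = 0.018). Irf7, the factor that amplifies interferon production, had a log2 fold change 0.35 ± 0.07, adjusted p = 0.003. Of 25 lysosomal genes 7 were higher and 1 lower, the protease legumain, Lgmn, among the former (log2 fold change 0.30 ± 0.06, adjusted p = 0.0032) and Atp6v0d2 the latter (log2 fold change -0.80 ± 0.14, adjusted p = 0.0013).

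Markers of other cells moved with the split. Of 13 sinusoidal endothelial markers 10 were lower in Timd4-positive cells (median -0.67), as were 2 of 3 stellate and 2 of 4 dendritic cell markers. Without barcodes with markers of other types, 60 of 4802 genes (1.25%) passed, and of 340 earlier calls still tested 328 kept their sign and 48 passed. There, the median of the 4 endothelial markers still tested was 0.03. The filter counts the endothelial markers Kdr and Ptprb, so this median can follow from the filter alone. In the same setting, 5 MHC class II genes were lower (beside 0.729% of all genes, median -1.33). Further, 7 lipid-associated macrophage genes were lower (-0.34) and 7 identity genes were higher (beside 0.521%, 0.36). The filter holds no dendritic cell or macrophage marker, and the part of RNA from those cells in these differences was not tested. With at most 1 UMI of endothelial markers per cell, a setting added after the data were seen that kept 239 positive and 405 negative cells, 2 of 3405 genes (0.0587%) passed, and 260 of 285 earlier calls still tested kept their sign. The part of endothelial RNA in the difference was not tested further.

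**Figure D5:**
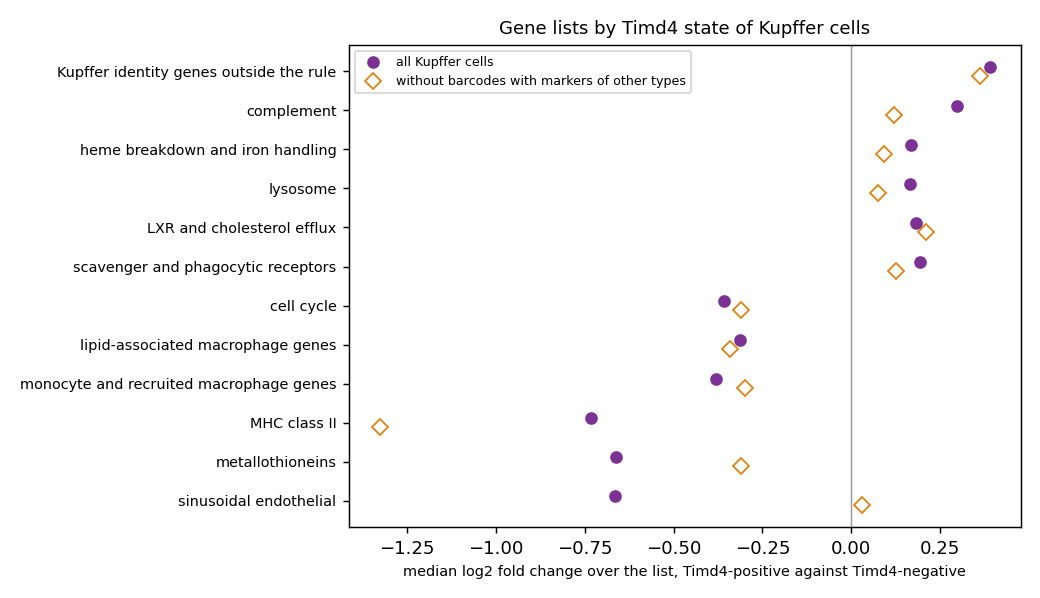
Median log2 fold change (horizontal axis) over the tested genes of 12 lists, Timd4-positive against Timd4-negative Kupffer cells of the same library, for all Kupffer cells (filled circles) and without barcodes with markers of other types (open diamonds). Identity genes lie at 0.39 and 0.36, MHC class II genes at -0.73 and -1.33, and sinusoidal endothelial markers at -0.67 and 0.03. The second endothelial median is over fewer markers, and its filter counts the endothelial markers Kdr and Ptprb.

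After the diet was stopped, lipid-associated macrophage genes were lower and MHC class II genes higher than in D19 B, the protocol B library of nearly the same diet length. Each side is 1 library, so there is no test, and the values carry exact Poisson intervals for counting error only. The 93 Kupffer cells of STOP held 1119425 UMIs and the 98 of D19 B 1357516. Of 881 genes with at least 200 CPM in either, 347 (39.4%) were higher and 276 (31.3%) lower in STOP with intervals that did not overlap.

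Of 14 lipid-associated macrophage genes 12 were lower and 1 higher (median log2 ratio -1.30, beside 0.11 over the 881). Gpnmb was at 96.5 CPM (95% CI 79.1 to 116) in STOP and 741 (696 to 788) in D19 B. Trem2 was at 212 CPM (95% CI 186 to 240.5) in STOP and 1014 (961 to 1069) in D19 B, and D0 B held 5.34 CPM. Mmp12 was at 616 CPM (95% CI 571 to 664) in STOP and 3334 (3238 to 3433) in D19 B. In STOP all 3 lay between D0 B and D19 B. Colec12, the scavenger receptor, had the largest ratio downward among the 881, at 39.3 CPM (95% CI 28.6 to 52.8) in STOP and 452 (417 to 489) in D19 B, with 21.4 CPM in D0 B. Ccl9 was at 57.2 CPM (95% CI 44.03 to 73.01) in STOP and 301 (273 to 332) in D19 B. Of 17 lysosomal genes 14 were lower and 2 higher, and of 15 scavenger receptors 12 were lower and none higher.

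All 6 MHC class II genes were higher in STOP (median log2 ratio 2.07), with H2-Aa at 3524 CPM (95% CI 3415 to 3636) in STOP and 747 (702 to 794) in D19 B. All 5 type I interferon-stimulated genes that reached 200 CPM were higher (median 2.18), Isg15, a ubiquitin-like protein, at 231 CPM (95% CI 204 to 261) in STOP and 28.7 (20.4 to 39.3) in D19 B. All 6 heat shock genes and 11 of 15 immediate early genes were higher. Nr1h3 was at 398 CPM (95% CI 362 to 437) in STOP and 165 (144 to 188) in D19 B, with 422 CPM in D0 B. Among the largest ratios upward were Car3 and Acaa1b, genes of hepatocytes, and Igfbp7 and Sparc, genes of stromal and endothelial cells. Car3 had 354 UMIs in STOP and 0 in D19 B. Summed hepatocyte and stellate cell markers were also higher in STOP, as given above, as were dendritic cell markers (446 CPM in STOP and 61.1 in D19 B), from cells that also carry MHC class II, and sinusoidal endothelial markers (1303 and 250.5). Their part in these differences was not tested.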

How the data were processed

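Single-cell RNA-seq was measured in 13 libraries of sorted liver cells (10x 3′ chemistry v3.1). The values are raw UMI counts per gene symbol and barcode, which the authors made with kallisto (version not given in the sources used here) on GRCm38, per the submitters' processing notes, and deposited without a filter on barcodes. Normalized values were not used. Kupffer cells were chosen by the UMI thresholds given above, and their counts were summed per library where at least 20 cells were found. Depth of these sums ranged from 187219 to 8098765 UMIs. Doublets were not removed and free RNA was not subtracted. The members, gene lists and tests were chosen with earlier results of these data known.

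Stages were compared with edgeR 4.0.16 (quasi-likelihood test, TMM, filterByExpr, isolation protocol as a term, Benjamini-Hochberg threshold 0.05) over all genes but the 9 of the rule, and every adjusted p is from this test, two-sided. All 11 libraries shared 1 estimate of the spread. Standard errors are the log2 fold change divided by the root of F. The comparison with Clec4f-negative macrophages used an interaction term, and both it and that of Timd4-positive with Timd4-negative cells had the library as a block. DESeq2 1.42.0, other filters and leaving out each library were alternatives. Scripts ran in R 4.3.3 and Python 3.11.15 and were tested on simulated data. T cells, used for background shares, held at least 2 UMIs of Cd3e, none of Clec4f or Epcam and at most 1 of C1qa, C1qb and C1qc together.

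Named genes are the 8 largest called log2 fold changes in each direction among genes whose mean log2 CPM reached 5, and up to 4 called genes of each of 31 lists, or the 2 of highest expression where none was called. Predicted, mitochondrial, ribosomal and other-cell marker genes were left out of the first set. For STOP the list members reaching 200 CPM in a library and the 5 largest ratios in each direction were used. Promoter sequences are from RefSeq (GRCm38.p6), and 27025 genes had 1. Some named genes are not reported here.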

Additional observations from a re-analysis of the deposited data

Results flagged for a closer look

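In Kupffer cells of progression, D9 A stood apart from the other 5 libraries in 5 of the 39 named genes called in a stage comparison (Dixon's test, which chance passes in about 1 of 20 groups). Hspa1b was at 364.19 CPM in D9 A and at 8.50 to 80.6 in the others. Hspa1a was at 223.74 CPM against 14.5 to 91.8. Nr1h3 was at 307.02 CPM against 169 to 214. Ly6a was at 65.181 CPM against 16.6 to 34.1. The hepatocyte gene Mup3 was at 4.6558 CPM and at 0 in the others. In the first 4 of these genes D9 A was the progression library closest to steady state. D9 A also had the highest sums of sinusoidal endothelial and neutrophil markers, 3317 and 1142 CPM, whose part was not tested.

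The change from onset to progression differed between Kupffer cells and Clec4f-negative macrophages by a difference of log2 fold changes of 2.448 for Ccr1, 4.9192 for Ccl22 and 4.7679 for Retnlg (edgeR, interaction term), with the levels given above.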

How the results depend on the processing

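Steady state rested on 2 libraries, with 36 Kupffer cells in D0 B. Leaving out each library gave 13 to 447 called genes in progression against steady state: 14 without D0 A, 13 without D0 B, 93 without D5 A, 119 without D5 B, 447 without D9 A, 111 without D9 B, 78 without D19 A, 110 without D19 B and 30 without D25 A. Without D0 A, 182 of 186 called genes still tested kept their sign, and all of those tested did in each other setting, but 9 of the 187 were called without D0 A and 12 without D0 B. It gave 0 (without D0 A) to 27 (without D9 A) at onset, 0 (without D3 A) to 27 (without D9 A) in progression against onset, 1 (without D3 A or D5 A) to 8 (without D5 B) for the difference from Clec4f-negative macrophages, and 313 (without D9 A) to 581 (without D5 B) for Timd4. DESeq2 called 103 genes at onset, 474 in progression, 21 in progression against onset and 13 for the difference from macrophages, and no filter on low counts gave 438, 707, 234 and 160, and 875 for Timd4. Protocol A alone called 0, 10 and 4 genes in the 3 stage comparisons (1 higher and 9 lower in progression), at least 50 cells per library 0, 12 and 1 (2 higher and 10 lower in progression), and no protocol term 1, 45 and 2. The first 2 of these settings leave D0 A as the 1 steady-state library, which is then assumed to vary like the other stages. Without barcodes with markers of other types the counts were 11 at onset, 158 in progression, 1 in progression against onset, 1 for the difference from macrophages and 60 for Timd4. With at least 3000 UMIs per cell or at least 4 of Clec4f, 1 gene was called for the difference from macrophages, and 283 for Timd4 with the latter. Steady state in place of onset gave 20 and at most 1 endothelial UMI gave 2, both chosen after seeing the data. In the Timd4 comparison, Stab1 (0.0209), Egr1 (0.249), Bmp2 (0.126) and Bmpr2 (0.0199) reversed without barcodes with markers of other types, and Ifi27l2a (-0.0275), Iigp1 (0.0365) and Egr1 (0.014) with at most 1 endothelial UMI (log2 fold changes). The cause was not tested. No named call of the stages reversed: of 722 values of 38 genes in progression, 458 kept and 264 lost their call. No paired analysis was possible because the replicate numbers follow accession order and the labels tie no libraries of different stages to each other.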

Other observations

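Receptors and an adhesion molecule outside the lists also rose in Kupffer cells in progression against steady state. They were picked after their values were seen, from the 96 genes that rose. Clec7a, the receptor for fungal glucans, was at 446 (D0 A) and 475 CPM (D0 B) at steady state, 1133, 1153 and 948 in D3 A, D5 A and D5 B, and 889.9 to 1385 over the 6 progression libraries (median 1065) (log2 fold change 1.22 ± 0.23, adjusted p = 0.028). The related lectin Clec4n went from 135 and 125 CPM to 238 to 465.8 (log2 fold change 1.47 ± 0.28, adjusted p = 0.028). Csf2rb, the shared receptor chain for GM-CSF and IL-3, went from 99.5 and 115 to 219 to 360.3 CPM (log2 fold change 1.40 ± 0.25, adjusted p = 0.024). Vcam1, an adhesion molecule for leukocytes, was at 361 (D0 A) and 529.8 CPM (D0 B) at steady state, 663, 717 and 779 in D3 A, D5 A and D5 B, and 647 to 1225 over the 6 progression libraries (median 1183) (log2 fold change 1.31 ± 0.28, adjusted p = 0.036). The urokinase receptor Plaur rose by 2.14 on the log2 scale and the platelet-activating factor receptor Ptafr by 2.52.

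Genes lower in progression included H2-K1, an MHC class I heavy chain, which was at 2148 (D0 A) and 1339.5 CPM (D0 B) at steady state, 1434, 885 and 1010.2 in D3 A, D5 A and D5 B, and 587 to 1024 over the 6 progression libraries (median 721) (log2 fold change -1.19 ± 0.26, adjusted p = 0.037). Pmaip1, a pro-apoptotic protein, was at 289 (D0 A) and 299.9 CPM (D0 B) at steady state, 135, 109.6 and 129 in D3 A, D5 A and D5 B, and 82.4 to 146 over the 6 progression libraries (median 97.1) (log2 fold change -1.51 ± 0.21, adjusted p = 0.0063), and both steady-state libraries were above every other library. Reads of H2-K1 may be shared with the other class I genes. These genes were also picked after their values were seen.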
